A study of Mus musculus with 20 samples.

Results

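Synaptotagmins are membrane proteins of synaptic vesicles, secretory granules and the plasma membrane that carry a pair of C2 domains. In the isoforms that sense calcium, acidic residues in the loops of these domains bind calcium ions, and the protein then engages membrane lipids and the SNARE proteins so that the vesicle fuses. Isoforms differ in speed and calcium affinity, and in the hippocampus they are known for setting the timing of transmitter release at excitatory and inhibitory synapses. The 10 synaptotagmin genes Syt1, Syt2, Syt3, Syt4, Syt5, Syt6, Syt7, Syt9, Syt11 and Syt15 were taken by gene name from the 25190 genes of the count table. All 10 were found, each under 1 gene identifier, and all entered every test without a filter of their own.

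RNA was sequenced from the hippocampus of 20 male wild-type C57BL/6JOlaHsd mice of 4 months, 5 in each of 4 groups. All mice carried bilateral cannulas in CA1 of the dorsal hippocampus and received 2 infusions of 2 µL, 48 hours apart, and tissue was taken 24 hours after the last behavioural test. Infusates were artificial cerebrospinal fluid alone for the Vehicle group and human hippocampal small RNAs (sRNAs) at 0.24 µg/µL for the other groups. The sRNAs of the Control group were pooled from 9 control individuals, and those of the Pool 1 and Pool 2 groups from separate cohorts of 10 patients with schizophrenia. Each sRNA group therefore tests 1 pooled preparation, and differences between pools cannot be told apart from differences between these preparations.

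The libraries held 20588280 to 25543939 counts, so that 3 counts, taken as the floor, correspond to 0.117 to 0.146 CPM, the usual unit of counts scaled to a common library total. The sample labels name CA1 in the design and hippocampus as the tissue. Markers of CA1 pyramidal neurons (summed level of 502 to 1324 CPM), of CA2 and CA3 (227 to 383 CPM) and of dentate granule cells (250 to 717 CPM) were present in every library. Pool 2 replicate 1 stood apart in glial genes, with Gfap, an astrocyte filament, at 1401 CPM against at most 836 CPM elsewhere and Aif1, a microglial gene, at 29.7 CPM against at most 10.7 CPM. Results that rest on this library are given with and without it. For the fold changes of Syt1, Syt9 and Syt11 the fit without it also leaves out Vehicle replicate 4. Choroid plexus markers summed to 9119 CPM in that library. That fit does not separate the parts of the 2 libraries, so the outcome with single libraries left out is given beside it.

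The short coding stretch around the third calcium-binding loop of the first C2 domain is shown, since its leading residue differs between Syt11 and the other members listed. Each line gives 30 coding bases, 5′ to 3′, from the transcript with the longest coding sequence in GENCODE M21, with the codon of the loop's leading residue in capitals. This codon reads aspartate, a calcium ligand, in Syt1, Syt2, Syt3, Syt5, Syt6, Syt7 and Syt9, and serine in Syt11.
Syt1: tatGATtttgaccgcttctccaagcacgac
Syt2: tatGACtttgaccgcttctctaagcatgac
Syt9: tatGACtttgacaggttctctcgccatgac
Syt5: tatGACtttgatcggttctcccgcaacgat
Syt3: tatGACttcgaccgcttctcgcggcatgat
Syt6: tttGACtttgaccgcttctcccgccatgac
Syt7: ctgGATtatgaccgtttcagccgcaatgac
Syt11: ctcAGCtttgatcgattctctcgggatgac

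The capitalised codon stands at residue 230 of 421 in Syt1, 231 of 422 in Syt2, 309 of 491 in Syt9 and 247 of 430 in Syt11. Each stretch lies within a single exon. On GRCm38 the stretch of Syt9 is at chr7:107436699-107436728 on the plus strand, in exon 3 of 7, and that of Syt11 is at chr3:88761819-88761848 on the minus strand, in exon 3 of 5. Over the 30 bases, Syt2 equalled Syt1 at 27, Syt6 at 24, Syt3 at 23, Syt5 and Syt9 at 22 each, Syt7 at 18 and Syt11 at 17. No stretch is shown for Syt4 and Syt15, so their residue at this place was not compared. Serine is therefore not shown to be particular to Syt11 among the members.

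The genes lie on 7 chromosomes, with Syt3, Syt5 and Syt9 on chromosome 7 and Syt6 and Syt11 on chromosome 3. Syt9 (ENSMUSG00000062542.11) spans chr7:107370728-107548656 and Syt2 (ENSMUSG00000026452.15) spans chr1:134646677-134762593, both on the plus strand. No stretch of 50 bases, the length of a read, was shared between any of the 10 genes. With genes outside the set, Syt11 shared 5.86% of its 50-base stretches and Syt15 1.47%, and reads from those stretches could not be assigned to these genes alone. Exons of Syt4, Syt6 and Syt7 overlap exons of a gene on the opposite strand, and none overlap exons on the same strand. The counts are per gene, so the splice forms of a gene, 15 annotated transcripts for Syt7 alone, are not separated.

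The levels of the synaptotagmins differed widely. Level is given as CPM per kilobase of merged exon, so that genes of different length can be compared. Syt1, the main fast calcium sensor of forebrain synapses, was highest at 183 ± 21.4 (SD, n = 20 libraries), and made up 36.5% of the summed level of the 10 genes (32.5% to 39.6% between libraries). Syt11, whose leading loop residue is serine and which is known for roles in vesicle trafficking and endocytosis, followed at 141 ± 10.9, or 28.3% of the sum. Syt7, a high-affinity sensor of slow and asynchronous release, came next at 61.7 ± 8.17, or 12.4%.

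The middle of the order was held by Syt5 at 45.8 ± 5.64, Syt4 at 38.5 ± 5.95 and Syt3 at 22.7 ± 2.06 CPM per kilobase. Syt4 is an activity-regulated isoform of dense-core vesicles, and Syt3 is known for the retrieval of AMPA receptors from the postsynaptic membrane. Then came a drop of 6.29-fold to Syt2, the fast sensor of many parvalbumin-positive inhibitory terminals, at 3.61 ± 1.04. Syt9, a fast sensor that can drive synchronous release in striatal and limbic neurons, was at 1.63 ± 0.968, and Syt6, known from the acrosome reaction of sperm, was at 1.27 ± 0.297. Syt15, an isoform that does not bind calcium, was lowest at 0.236 ± 0.0792, which rests on 10 to 44 counts per library.

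The order of the levels did not hold equally for all neighbours. The ranges over the 20 libraries were separate between Syt11 and Syt7, between Syt3 and Syt2 and between Syt6 and Syt15, and overlapped for the other neighbours. Within a library, Syt1 was above Syt11 in 20 of 20 mice and Syt4 above Syt3 in 20 of 20. Syt9 was above Syt6 in only 12 of 20, so these neighbours did not differ beyond their spread. The order was the same with the length of the longest annotated transcript.

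**Figure D1:**
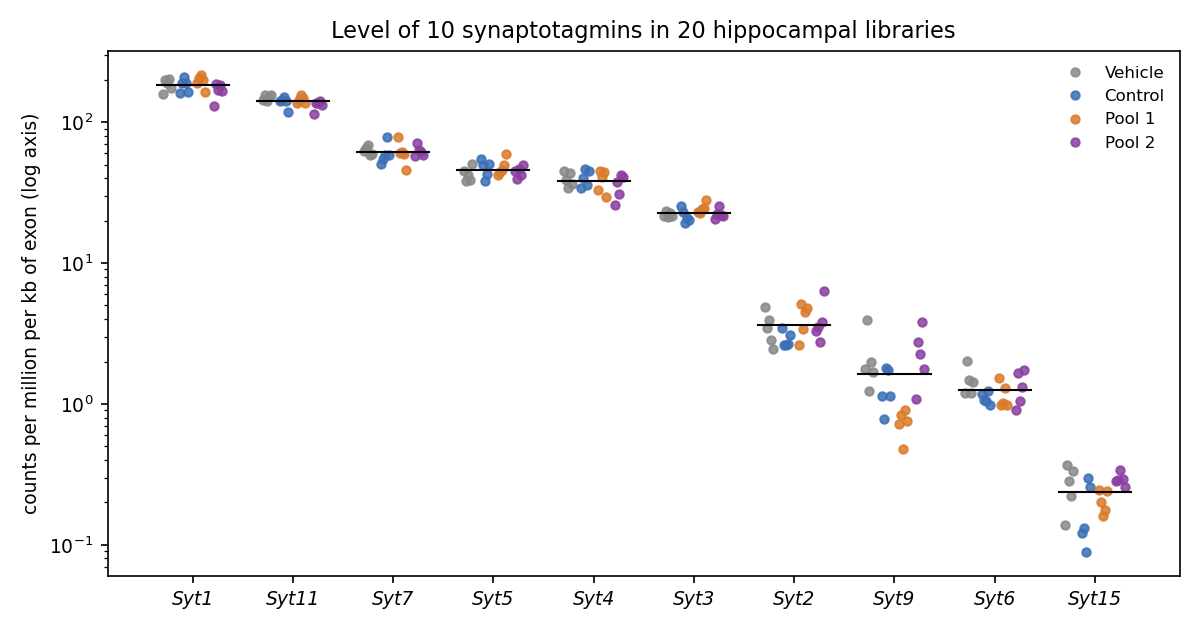
Level of each synaptotagmin in each library, in CPM per kilobase of merged exon on a log axis, with points coloured by group and a line at the mean of the 20 libraries. Syt1 and Syt11 lie highest, a step of 6.29-fold separates Syt3 from Syt2, and the points of Syt9 are spread furthest, from 0.476 to 3.96.

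Between mice of 1 group, the members differed in how much they varied. The within-group standard deviation of log2 CPM was 0.10 for Syt11 and 0.12 for Syt3, and reached 0.55 for Syt9, 0.45 for Syt15 and 0.37 for Syt2. Part of such spread comes with a low count, so each gene was set beside genes of like mean count. Among 1572 genes of the level of Syt9 the median was 0.25, and 93.0% of them varied less than Syt9. Among 2553 genes of the level of Syt2 the median was 0.16, and 94.2% varied less than Syt2. For Syt15 the median of like genes was 0.43, close to its own value. Syt11 varied less than most genes of its level, with 9.62% of 156 genes below it.

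The group comparisons ask whether sRNAs from patients change these genes relative to sRNAs from controls, whether sRNAs as such do so relative to vehicle, and whether the patient pools differ. The call threshold for both directions combined a log2 fold change of 0.3 or more in size with an unadjusted p below 0.05, from edgeR's quasi-likelihood fit of all 25190 genes. In Pool 1 against Control mice 2 of 10 members were called, Syt2 up and Syt9 down, where 3.48% of all genes were called (374 up, 502 down). In Pool 2 against Control mice Syt9 and Syt15 were upregulated, with 6.22% of all genes called (1311 up, 255 down). In Pool 2 against Pool 1 mice Syt9 alone was called, upwards, with 6.82% of all genes called (1426 up, 292 down).

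Against Vehicle mice the calls were downwards, as were most calls over all genes in Control mice (858 down, 427 up) and Pool 1 mice (1078 down, 267 up). Syt6 and Syt9 were downregulated in Control mice (5.10% of all genes called), and Syt9 was downregulated in Pool 1 mice (5.34%). In Pool 2 against Vehicle mice edgeR called none of the 10 (4.69%), with 1 gene, Syt11, at an unadjusted p under 0.05, and DESeq2 also called none. The comparisons share Control, Vehicle or pool mice and are not independent of each other. No member, and no gene of the whole table, had an edgeR adjusted p-value under 0.05 in any of the 6 comparisons, while DESeq2 gave an adjusted p-value under 0.05 for Syt9 in Pool 1 against Vehicle and in Pool 2 against Pool 1. In 4 of the 60 gene and comparison combinations the groups did not overlap, and none of these was in Pool 1 against Control, Pool 2 against Control or Control against Vehicle, where 0.861%, 1.05% and 0.607% of all genes had groups without overlap. The median absolute log2 fold change of the members ranged from 0.09 in Pool 1 against Control to 0.15 in Pool 2 against Control, beside 0.15 and 0.16 over all genes and 0.10 and 0.11 over the genes with normalized counts averaging 10 or more, among which all 10 members lie.

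**Figure D2:**
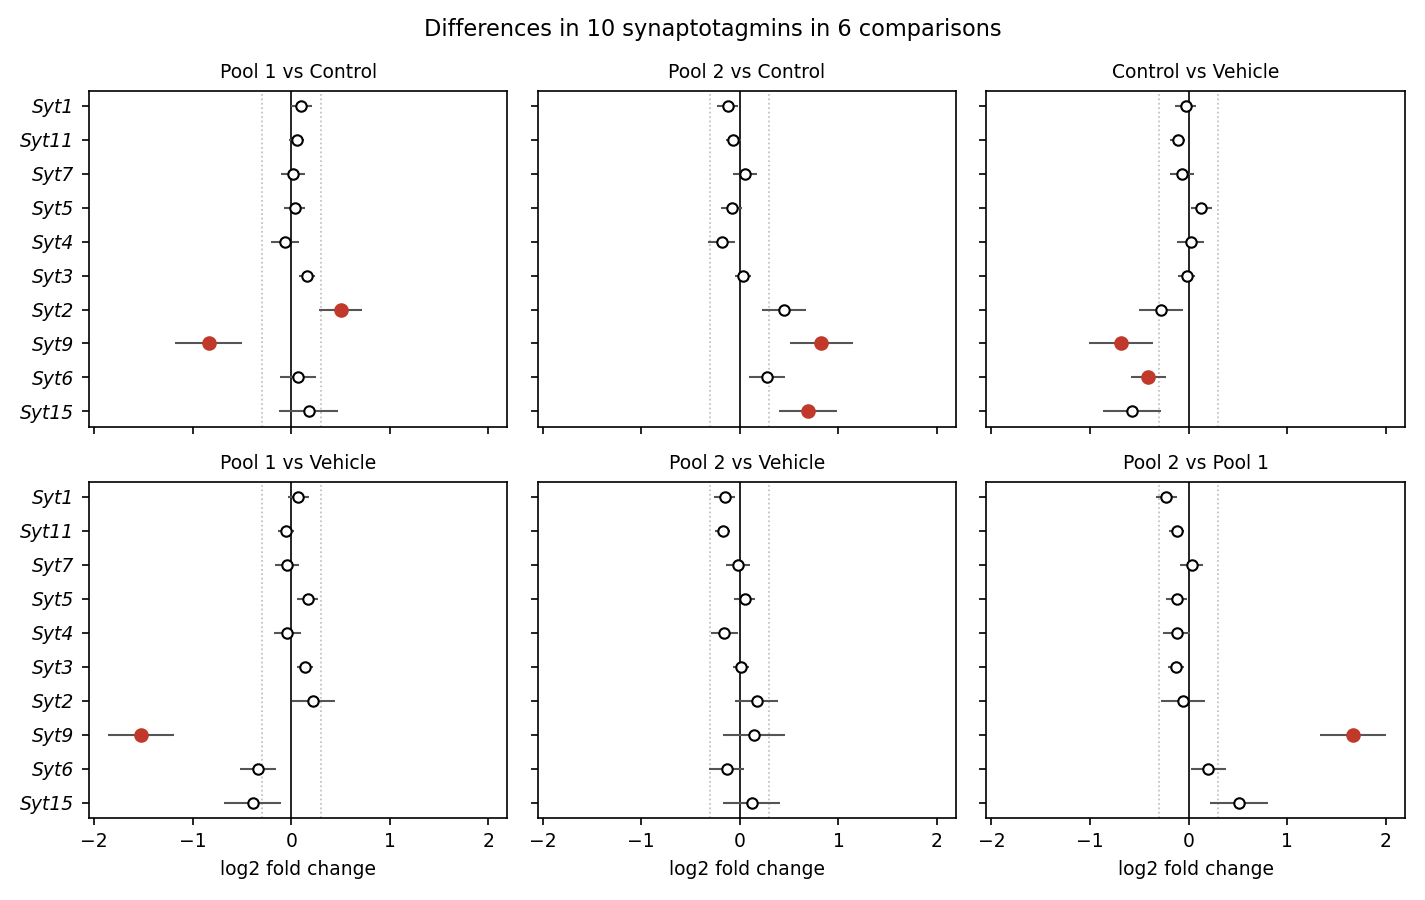
Log2 fold change of each member in the 6 comparisons, with bars of 1 standard error from edgeR, dotted lines at an absolute value of 0.3 and filled red points for members called. Syt9 was called in 5 of the 6 comparisons and moved furthest, from −1.52 in Pool 1 against Vehicle to 1.67 in Pool 2 against Pool 1, while Syt1, Syt3, Syt4, Syt5, Syt7 and Syt11 stayed within 0.3 of zero.

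Syt9 separated the patient pools. Its level was 2.87, 3.32, 1.89, 3.58 and 2.99 CPM in the 5 Pool 1 mice and 4.30, 11.02, 9.04, 15.1 and 7.09 CPM in the 5 Pool 2 mice. In Control mice it was 4.56, 3.13, 7.18, 6.88 and 4.51 CPM, and in Vehicle mice 7.04, 15.8, 4.89, 7.85 and 6.70 CPM. The highest Pool 1 mouse was below the lowest Pool 2 mouse and below the lowest Vehicle mouse, whereas the Control mice overlapped all other groups. These values rest on 39 to 364 counts per library.

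Between the pools Syt9 was 3.17-fold higher in Pool 2 than in Pool 1 mice (log2 fold change 1.67 ± 0.34 SE, edgeR adjusted p = 0.151). The DESeq2 adjusted p-value was 0.000862. An exact two-sided permutation test of the mean log2 CPM gave p = 0.00794, the smallest that 5 against 5 mice allow. Groups without overlap were found for 1.41% of all genes in this comparison, and for 2 of the 10 members, Syt9 and Syt15. Without Vehicle replicate 4 and Pool 2 replicate 1 the log2 fold change was 1.85 (edgeR adjusted p = 0.0738). Without Pool 2 replicate 1 alone Syt9 was again the only member called (edgeR adjusted p = 0.0911).

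Relative to Vehicle mice, Syt9 was downregulated in Pool 1 mice, by −1.52 ± 0.34 on the log2 scale (edgeR p = 0.000207, adjusted p = 0.283), and again without overlap (0.897% of all genes, exact permutation p = 0.00794). In Control mice the decrease from Vehicle was smaller, −0.69 ± 0.32 (edgeR p = 0.0470, adjusted p = 0.746, exact permutation p = 0.0873). This last call was lost under 10 of 18 alternatives, among them leaving out Vehicle replicate 1, 2 or 4 or Control replicate 1, 2 or 5, with −0.33 on the log2 scale without Vehicle replicate 2, the mouse with the highest Syt9. In Pool 2 mice the difference from Vehicle was 0.14 ± 0.32 (edgeR adjusted p = 0.976).

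Relative to Control mice, Syt9 was on opposite sides in the patient pools, at −0.84 ± 0.34 in Pool 1 (edgeR adjusted p = 0.917) and 0.83 ± 0.32 in Pool 2 (edgeR adjusted p = 0.552). Both calls came from the same 5 Control mice. The exact permutation test gave p = 0.0238 for Pool 1 and p = 0.103 for Pool 2. Leaving out Control replicate 3, Control replicate 4 or Pool 1 replicate 3 ended the call in Pool 1, and leaving out Control replicate 2 or Pool 2 replicate 4 ended it in Pool 2. In a bulk sample fewer cells that express a gene and less of its RNA per cell cannot be told apart, for Syt9 as for every gene below.

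Between the patient pools, some markers of neighbouring brain regions differed in the same direction as Syt9. Zic1, a transcription factor of septal and some thalamic neurons that was in the list for striatum and septum, was between 7.71 and 11.6 CPM in Pool 1 mice and between 15.8 and 76.5 CPM in Pool 2 mice. It was 1.86 higher on the log2 scale in Pool 2 than in Pool 1 (edgeR adjusted p = 0.196) and fell by 1.69 on the log2 scale in Pool 1 relative to Vehicle (edgeR adjusted p = 0.436). Of the genes chosen for their likeness to Syt9 over the 20 mice with the group means removed, Zic1 ranked next (Pearson r = 0.77), after Retreg1 (r = 0.85), a receptor for autophagy of the endoplasmic reticulum, and Fign (r = 0.80).

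Of 8 thalamus markers, 5 were upregulated in Pool 2 against Pool 1 mice, among them Tcf7l2 by 2.18 and Lef1 by 1.26 on the log2 scale. Their summed level was 304 to 376 CPM in Pool 1, 286 to 794 CPM in Pool 2, 273 to 490 CPM in Control and 303 to 373 CPM in Vehicle mice. Between the pools the sums overlapped, and so did Prkcd, Slc17a6, Plekhg1, Ntng1 and Adarb1 taken singly. Adarb1, which was not called, gave 149 to 283 CPM of the sums. Of the 8 single markers, 3 (Tcf7l2, Lef1 and Gbx2) separated Pool 1 from Pool 2 mice without overlap, as Syt9 and Zic1 did. Such separation was found for 1.41% of all genes. Gbx2 was near the floor, with at most 1 count in each Pool 1 mouse and 2 to 26 counts in Pool 2 mice. Tcf7l2 was at most 6.47 CPM in Pool 1 and at least 7.40 CPM in Pool 2 mice. Lef1 was at most 4.69 CPM in Pool 1 mice, below all Pool 2 (at least 5.26 CPM) and all Vehicle mice (at least 4.84 CPM). Without Pool 2 replicate 1, 7 of the 8 thalamus markers were higher in Pool 2 than in Pool 1. Of 9 striatum and septum markers, 2 were higher and 1 lower in this comparison, and their sums were 114 to 148 CPM in Pool 1 and 140 to 191 CPM in Pool 2. In Pool 1 against Vehicle mice, 3 of these 9 markers and 1 of the 8 thalamus markers were lower. In Pool 2 against Vehicle mice Syt9 was not called (0.14 on the log2 scale). There 3 of the 8 thalamus markers were higher (median log2 fold change of the list 0.70), and 6 without Pool 2 replicate 1. None of the 9 striatum and septum markers was called there. None of these markers was at 0 in every library of a group. The part that carried-over tissue had in the difference in Syt9 was not tested.

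Other marker lists differed as well between the groups in which Syt9 was called. All 9 choroid plexus markers were lower in Pool 1 than in Vehicle mice, with sums of 109 to 302 CPM against 215 to 9119 CPM, and 1 was higher in Pool 2 than in Pool 1. Also lower in Pool 1 than in Vehicle mice were 2 microglia markers and 1 marker each of oligodendrocytes, of neocortex and of CA2 and CA3. Between the pools, 6 of 8 microglia markers were higher in Pool 2, with sums of 274 to 325 CPM in Pool 1 and 275 to 856 CPM in Pool 2 mice. Without Pool 2 replicate 1, edgeR called 0 of these 8, and the highest Pool 2 sum was 420.4 CPM. Also higher in Pool 2 were 2 of 7 astrocyte markers, with and without this library, and 2 of 10 interneuron markers, Lhx6 and Nxph1, were lower (1 without it). Relative to Control mice, Pool 2 mice differed in these lists too: 4 of 8 thalamus markers (median log2 fold change of the list 0.62), 3 microglia markers and 1 astrocyte marker were higher, and without Pool 2 replicate 1 the counts were 4, 0 and 0. In Pool 1 against Control mice, Zic1 was lower by −1.12 on the log2 scale, and 1 marker each of thalamus, choroid plexus and astrocytes was lower. In Control against Vehicle mice, 3 choroid plexus markers, 2 striatum and septum markers and 1 marker of CA2 and CA3 were lower, and 1 thalamus marker was higher. The part of these markers in the values of Syt9 was not tested either.

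**Figure D3:**
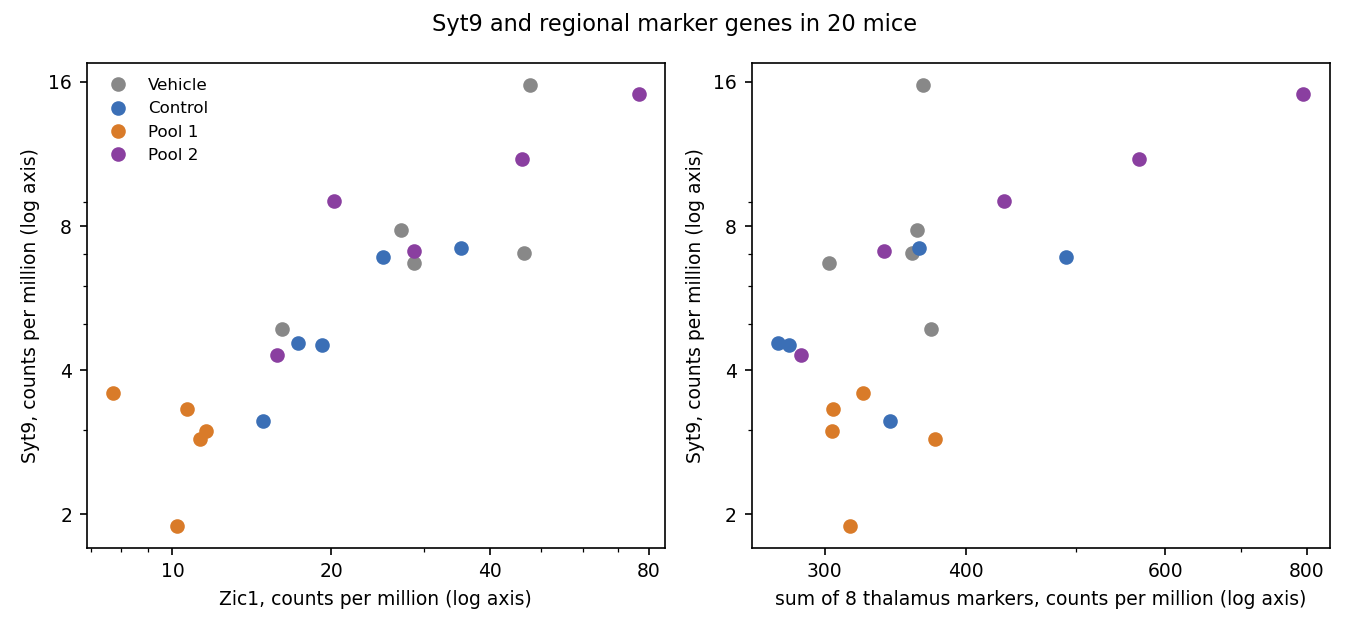
Syt9 in each of the 20 mice against Zic1 (left) and against the sum of 8 thalamus markers (right), all in CPM on log axes, coloured by group. The Pool 1 mice lie together at the low end of both Syt9 and Zic1. Their thalamus sums of 304 to 376 CPM, to which Adarb1 gives more than any other marker, overlap those of the other groups. Taken singly, Tcf7l2, Lef1 and Gbx2 separate Pool 1 from Pool 2 mice, and Prkcd, Slc17a6, Plekhg1, Ntng1 and Adarb1 do not.

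Syt2 was higher in Pool 1 than in Control mice. It was 26.3, 20.1, 20.1, 20.4 and 23.6 CPM in Control mice and 20.025, 39.2, 26.2, 34.3 and 36.6 CPM in Pool 1 mice. It was 25.1, 26.8, 20.9994, 29.05 and 48.5 CPM in Pool 2 mice and 37.0, 26.2, 30.1, 21.6 and 18.6 CPM in Vehicle mice. Control mice had the narrowest range, and it lay within the range of the Vehicle mice, while 3 of the 5 Pool 1 mice were above all Control mice and 1 was below them.

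The log2 fold change of Syt2 was 0.50 ± 0.22 in Pool 1 against Control (edgeR p = 0.0356, adjusted p = 0.917, exact permutation p = 0.0873). In Pool 2 against Control it was 0.45 ± 0.22 and did not pass (edgeR p = 0.0583, adjusted p = 0.674, exact permutation p = 0.0794). It passed there with DESeq2, with the default estimate of the spread, with a fit of these groups only and over 18 libraries. It also passed without Control replicate 1, Pool 2 replicate 1 or Pool 2 replicate 3, each left out alone. Against Vehicle mice Syt2 differed by 0.22 ± 0.22 in Pool 1 and 0.17 ± 0.22 in Pool 2, neither called. The call in Pool 1 was lost on leaving out any of 6 single mice (Control replicates 2, 3 or 4 and Pool 1 replicates 2, 4 or 5), with log2 fold changes of 0.41 to 0.63 over all single mice left out. Pvalb, the marker of the interneurons in which Syt2 protein is known to be enriched, differed from Control mice by −0.14 in Pool 1 and by −0.06 in Pool 2 on the log2 scale, neither called.

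Syt15 and Syt6 carried the remaining calls, both at low level. Syt15 was 0.626, 0.674, 0.460, 1.55 and 1.33 CPM in Control mice and 1.46, 1.48, 1.75, 1.502 and 1.33 CPM in Pool 2 mice. It was 1.25, 1.03, 0.825, 0.905 and 1.25 CPM in Pool 1 mice and 0.716, 1.90, 1.45, 1.14 and 1.72 CPM in Vehicle mice. Control mice fell into a lower set of 3 and a higher set of 2 mice, and the Pool 2 mice were the most alike. The log2 fold change in Pool 2 against Control was 0.69 ± 0.29 (edgeR p = 0.0271, adjusted p = 0.580, exact permutation p = 0.0635), and the call was lost without Control replicate 1, 2 or 3 or Pool 2 replicate 3. Pool 2 mice were all above Pool 1 mice for Syt15 (exact permutation p = 0.00794), but edgeR's estimate of 0.51 ± 0.29 did not pass (adjusted p = 0.671).

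Syt6 was 6.99, 11.8, 8.56, 7.02 and 8.29 CPM in Vehicle mice and 6.88, 6.23, 6.12, 7.24 and 5.70 CPM in Control mice. Of the 5 Control mice, 4 were below all Vehicle mice. It was downregulated by −0.41 ± 0.18 on the log2 scale (edgeR p = 0.0334, adjusted p = 0.739, exact permutation p = 0.0317), and the call was lost without Vehicle replicate 2 or Control replicate 2, 3 or 5. In Pool 1 mice the difference from Vehicle was −0.34 ± 0.18 (edgeR adjusted p = 0.834) and in Pool 2 mice −0.13 ± 0.18. The difference in Pool 1 was called over 18 libraries and without Vehicle replicate 4 or Pool 1 replicate 1. In Pool 2 against Control mice Syt6 differed by 0.27 ± 0.18 (edgeR adjusted p = 0.774) and was not called. It was called there without Pool 2 replicate 1 and over 18 libraries.

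**Figure D4:**
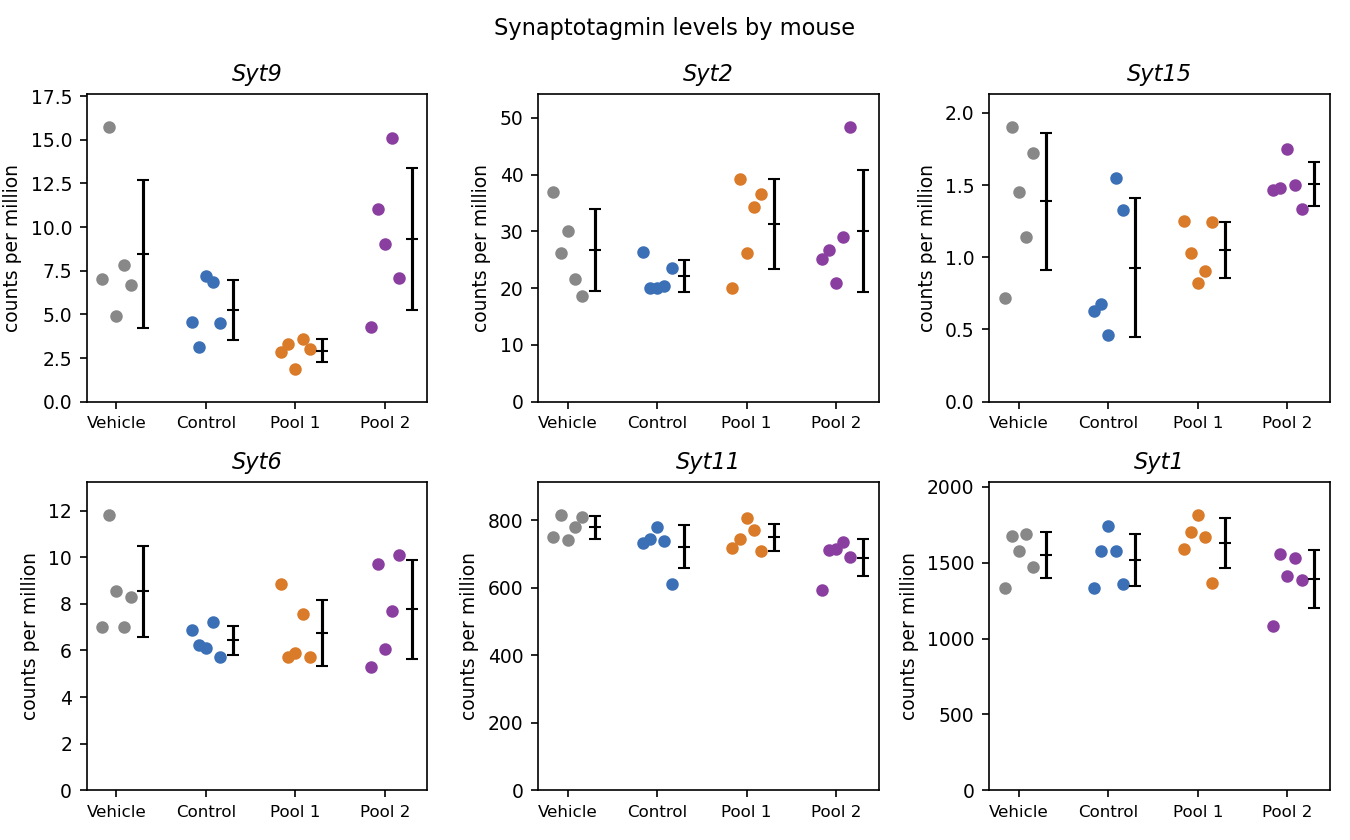
Level of 6 synaptotagmins in each mouse, in CPM on axes that start at 0, with the mean and SD of the 5 mice of each group beside the points. Pool 1 and Pool 2 mice do not overlap for Syt9, from 1.89 to 3.58 CPM and from 4.30 to 15.1 CPM, and for Syt15, while Syt2 is most alike among Control mice at 20.1 to 26.3 CPM.

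The abundant members differed little between the groups. Syt1 was 1549 ± 150.5 CPM in Vehicle, 1519 ± 169.9 in Control, 1629 ± 166.1 in Pool 1 and 1393 ± 189.5 in Pool 2 mice (SD, n = 5 each). Its lowest value, 1080 CPM, was in Pool 2 replicate 1, and the other Pool 2 mice were at 1555, 1415, 1530 and 1385 CPM. In Pool 2 against Pool 1 mice Syt1 was −0.23 ± 0.11 on the log2 scale (edgeR p = 0.0426, adjusted p = 0.565, exact permutation p = 0.0714), under the fold threshold, and −0.15 (edgeR adjusted p = 0.986) without Vehicle replicate 4 and Pool 2 replicate 1. Without Pool 2 replicate 1 alone the edgeR p of Syt1 was no longer under 0.05.

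Syt11 was 750.2, 816, 740.3, 780 and 809 CPM in Vehicle mice and 595, 713, 714, 734 and 692 CPM in Pool 2 mice, so that all Pool 2 mice were below all Vehicle mice. Groups were separate in this way for 0.750% of all genes. The log2 fold change was −0.18 ± 0.08 (edgeR p = 0.0360, adjusted p = 0.886, exact permutation p = 0.00794), under the fold threshold. It was −0.13 (edgeR adjusted p = 0.998) without Vehicle replicate 4 and Pool 2 replicate 1. With either of these libraries left out alone, the edgeR p was no longer under 0.05.

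The slow sensor Syt7 ranged from 342 to 592 CPM, and its log2 fold changes lay between −0.07 and 0.05 in all 6 comparisons. Syt3 was 70.3 to 87.2 CPM in Pool 1 and 66.2 to 73.2 CPM in Vehicle mice, with a log2 fold change of 0.14 ± 0.08 (edgeR p = 0.106) and an exact permutation p of 0.0397. Syt4 ranged from 99.9 CPM in Pool 2 replicate 1 to 181 CPM, and its largest difference, −0.18 ± 0.14 in Pool 2 against Control, was not called. Syt5 ranged from 91.4 to 141 CPM and differed most in Pool 1 against Vehicle, by 0.17 ± 0.11 (edgeR adjusted p = 0.912). In all, 60 exact tests were made, for 10 genes in 6 comparisons, and 7 gave an unadjusted p under 0.05. The tests share groups of mice and are not independent. This test was not run on the other genes, so the count has no share over all genes beside it.

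Co-variation between mice was examined on log2 CPM with each group's mean removed, over the 20 mice and the 45 pairs of members. The highest correlation was between Syt1 and Syt11 (Pearson r = 0.76, permutation p = 0.000640, adjusted p = 0.0288, Spearman rho = 0.73, permutation p = 0.00115). It was the only pair with an adjusted p under 0.05. Without the mice farthest from the median of Syt1, Pool 2 replicate 1 and Pool 1 replicate 5, r was 0.64, and without Pool 2 replicate 1 alone the adjusted p was 0.128. The r without that library alone was 0.66, and no other mouse was left out singly for the pairs. With rank correlation over all 20 mice the adjusted p was 0.0517.

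Syt5 went the other way from Syt1 and Syt7. For Syt1 and Syt5 r was −0.67 (permutation p = 0.00249, adjusted p = 0.0560, rho = −0.69, permutation p = 0.00288), and without the same mice −0.72. Leaving out Pool 2 replicate 1 alone gave r = −0.78 and made this the only pair past the threshold, with an adjusted p of 0.0256. For Syt5 and Syt7 r was −0.66 (permutation p = 0.00748, adjusted p = 0.112, rho = −0.59, permutation p = 0.0141), and −0.67 without Pool 1 replicate 5 and Control replicate 3. Syt2 and Syt9, the fast sensors of lower level, had a correlation near 0 (r = 0.0037, permutation p = 0.990, adjusted p = 0.990, rho = 0.04, permutation p = 0.870), with r = 0.13 without Pool 2 replicate 5 and Vehicle replicate 1. The median absolute r of the 45 pairs was 0.33, beside 0.26 for the members against the 16644 genes whose normalized counts averaged 10 or more.

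The members were then set against the mean log2 CPM of 11 marker lists, in 110 relations of which 2 had an adjusted p under 0.05. Syt7 followed the dentate granule cell markers (r = 0.81, permutation p = 0.000350, adjusted p = 0.0192, rho = 0.71, permutation p = 0.00123), with r = 0.59 without the mice farthest from the list's median, Pool 1 replicate 1 and Control replicate 4. Syt7 was highest in these same mice, at 588 and 592 CPM. Against CA1 pyramidal markers its r was −0.70 (permutation p = 0.00703, adjusted p = 0.166, rho = −0.50, permutation p = 0.0405), and −0.59 without Pool 1 replicate 1 and Pool 2 replicate 5.

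Syt2 followed the neocortex markers (r = 0.71, permutation p = 0.000250, adjusted p = 0.0192, rho = 0.80, permutation p = 0.000150), with r = 0.75 without Vehicle replicate 1 and Control replicate 5. Its r with CA1 pyramidal markers was 0.58 (permutation p = 0.0161, adjusted p = 0.192, rho = 0.46, permutation p = 0.0581), and 0.30 without Pool 1 replicate 1 and Pool 2 replicate 5. With CA2 and CA3 markers r was −0.52 (permutation p = 0.0232, adjusted p = 0.192), and −0.51 without Control replicate 5 and Pool 1 replicate 2. With interneuron markers r was 0.49 (permutation p = 0.0442, adjusted p = 0.211, rho = 0.45, permutation p = 0.0524), and 0.53 without Pool 2 replicate 1 and Control replicate 4. The neocortex markers summed to 240.2 to 283 CPM in Control and 257 to 297 CPM in Pool 1 mice, and none of the 7 was called between these groups. The CA1 pyramidal markers summed to 553 to 1131 CPM in Control and 502 to 1324 CPM in Pool 1 mice. Their median log2 fold change was 0.31, and none of the 7 was called. The part of these lists in the difference in Syt2 was not tested.

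Syt9 had its highest r with the thalamus markers (r = 0.67, permutation p = 0.00409, adjusted p = 0.150, rho = 0.65, permutation p = 0.00834), and 0.58 without Pool 2 replicate 4 and Control replicate 4. With the whole striatum and septum list r was 0.29 (permutation p = 0.304, adjusted p = 0.528, rho = 0.34, permutation p = 0.182), and 0.34 without Vehicle replicates 1 and 3. Syt1 was lower where astrocyte markers were higher (r = −0.68, permutation p = 0.00941, adjusted p = 0.1696, rho = −0.66, permutation p = 0.00485), with r = −0.56 without Pool 2 replicate 1 and Vehicle replicate 3.

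**Figure D5:**
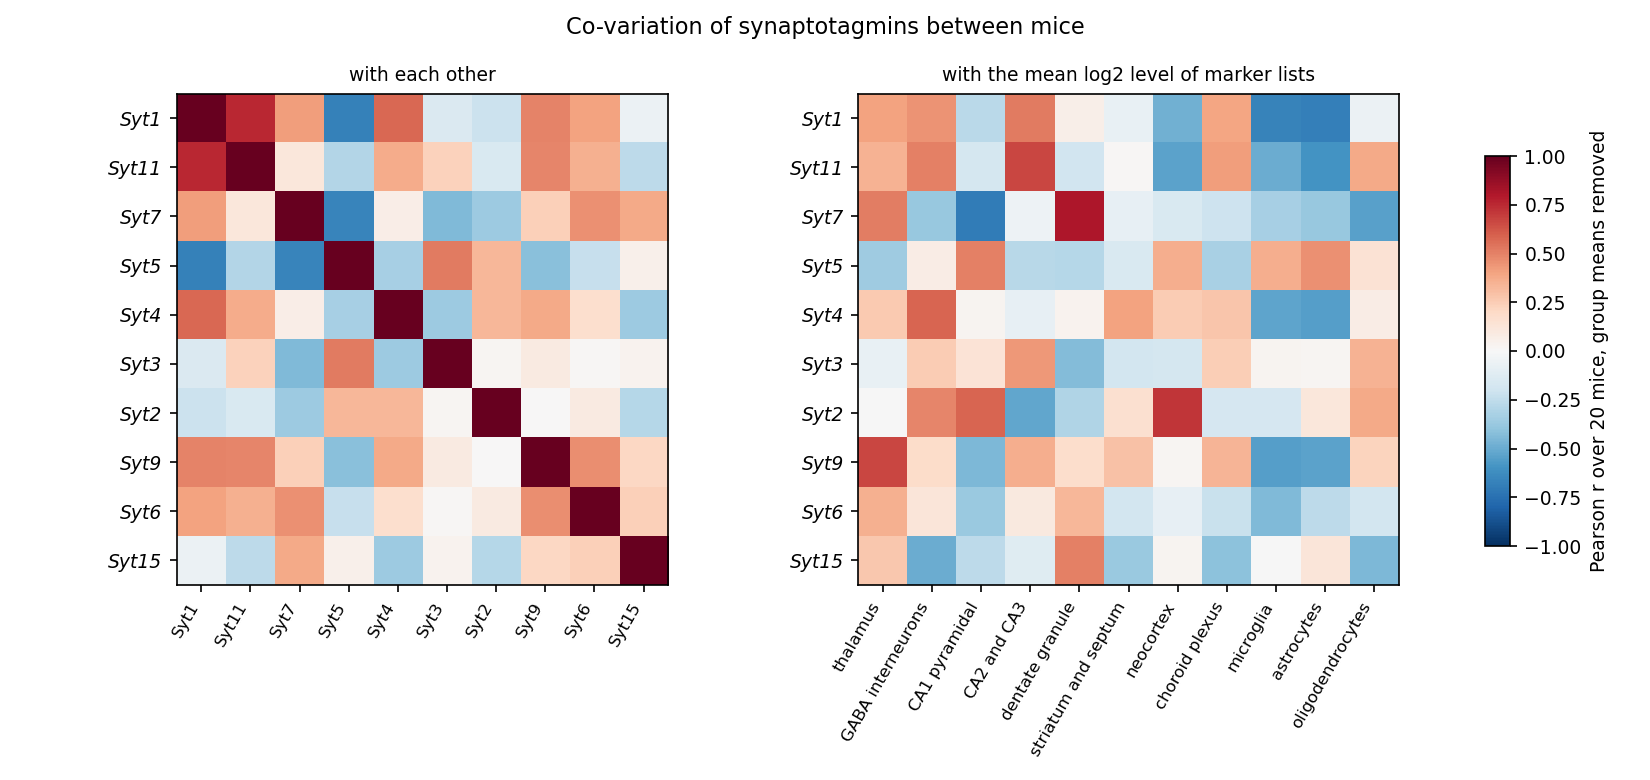
Pearson r of the members with each other (left) and with the mean log2 CPM of marker lists (right), over 20 mice with group means removed, on a colour scale from −1 to 1. The strongest cells off the diagonal are Syt7 with dentate granule markers at 0.81, Syt1 with Syt11 at 0.76 and Syt2 with neocortex markers at 0.71, and Syt5 is negative with both Syt1 and Syt7.

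The genes most like each member across the 20 mice, of the same 16644, were named by their Pearson r with group means removed. For Syt1 they were Napg, Slc36a4, Pafah1b1, Napb and Pcdh9 (r = 0.91 to 0.92), of which Napg and Napb encode SNAP proteins that recycle SNARE complexes. For Syt11 they were Gpr12, Rtn4, Dusp3, Cacng5 and Sms (r = 0.85 to 0.89). For Syt7 they were Arhgap21, Maml3, Itsn1, the calcium channel gene Cacna1c and Zfp866 (r = 0.92 to 0.95).

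For Syt2 the nearest genes were Astn2, Parm1, Tmem132d, Sowahb and the potassium channel gene Kcnt1 (r = 0.88 to 0.89). For Syt9, Sec14l4 and Rnf43 (r = 0.76 each) followed Retreg1, Fign and Zic1. For Syt6 they were Pou4f1, a transcription factor, at r = 0.85, then Spata32, Gucy1a1, the nicotinic receptor subunit gene Chrna3 and Tnpo3 (r = 0.74 to 0.75). Pou4f1 was at 3.64 CPM in Vehicle replicate 2, the mouse with the most Syt6, and at most 1.98 CPM elsewhere. The call of Syt6 in Control against Vehicle was lost without this mouse. The part that carried-over tissue had in the difference in Syt6 was not tested.

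For Syt3 they were Usp5, Gdap1l1, Aplp1, Zbtb45 and Cpt1c (r = 0.87 to 0.89), and for Syt4 Elavl4, St13, Glrb, Gnai1 and Bmt2 (r = 0.93 to 0.95). For Syt5 they were Bex1, C1qtnf4, Klf16, Ctxn1 and H1f10 (r = 0.91 to 0.94), and for Syt15 4930431P19Rik, 4933406C10Rik, Plekhg5, Gm49871 and Ing4 (r = 0.74 to 0.80). High r was common for some members and rare for others, since an absolute r over 0.5 was reached by 34.9% of the genes for Syt7 and 33.5% for Syt5, but by 5.22% for Syt2 and 7.27% for Syt9.

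Calls were also counted among 31 related genes (6 other synaptotagmins, 6 further C2-domain proteins and 19 genes of the fusion machinery). None was called in Pool 1 against Control (25190 genes tested by edgeR), Control against Vehicle or Pool 1 against Vehicle mice, with median log2 fold changes of 0.08, 0.02 and 0.08. Of all genes, 3.48%, 5.10% and 5.34% were called there. In Pool 2 mice 1 of the 31 was called against Control (6.22% of all genes) and 1 against Vehicle (4.69%), both upwards. Against Pool 1 mice 2 were higher and 1 lower (6.82% of all genes called). Esyt1, which tethers the endoplasmic reticulum to the plasma membrane, was upregulated in Pool 2 mice against Control (0.49 ± 0.15, edgeR adjusted p = 0.479), Vehicle (0.34 ± 0.15, adjusted p = 0.886) and Pool 1 mice (0.63 ± 0.15, adjusted p = 0.197). Without Pool 2 replicate 1 the call against Vehicle was lost (0.25), and those against Control (0.40) and Pool 1 (0.53) held. Its level was 9.46 to 14.7 CPM in Pool 2 and 6.31 to 8.64 CPM in Pool 1 mice, so these groups did not overlap, as for 1.41% of all genes.

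In Pool 2 against Pool 1 mice, Unc13c, a vesicle priming factor, was also upregulated (0.79 ± 0.28, edgeR adjusted p = 0.406), from 7.81 to 12.8 CPM in Pool 1 and from 8.25 to 30.3 CPM in Pool 2. Sv2b, a vesicle glycoprotein, was downregulated (−0.32 ± 0.15, edgeR adjusted p = 0.549), from 433 to 630 CPM and from 321 to 512 CPM. Without Pool 2 replicate 1 the call of Sv2b was lost (−0.24) and that of Unc13c held (0.83). None of the 6 other synaptotagmins measured (Syt10, Syt12, Syt13, Syt14, Syt16 and Syt17) was called in any comparison, where 3.48% to 6.82% of all genes were called.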

How the data were processed

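Bulk RNA sequencing of 20 mouse hippocampi was analysed. The authors made stranded poly(A) libraries read as single ends of 50 bases, aligned them with STAR to GRCm38 and deposited raw counts per gene on the GENCODE M20 annotation. The submitters' processing notes also name FastQC 0.11.5. The unit of the deposited values is the count, and the smallest gene total over the libraries was 10. Libraries were grouped by the sample labels.

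Here TMM factors were computed, CPM was the count over the library total times its factor, and edgeR 4.0.16 was run in R 4.3.3 (glmQLFit with robust estimation, then glmQLFTest) in 1 fit of the 4 groups, with Benjamini-Hochberg adjustment over 25190 genes. Correlations used log2 CPM with a prior count of 2 and 100000 two-sided permutations of mice within groups, adjusted over the family. Each library is numbered as a separate sample of its group, and p-values measure the spread between these 20 libraries. No duplicate libraries were found. Exon lengths, positions and coding sequences are from GENCODE M21 on GRCm38. Genes of like mean count lie within 0.5 on the log2 scale of the mean normalized count.

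The members, marker lists and related genes were chosen with earlier results of these data known. Named were all members, related genes past the threshold and, for each member, the 5 genes with the highest r. Pvalb, Gfap, Aif1, Retreg1 and single markers beside Syt9 were named after their values were seen. The alternatives were DESeq2 1.42.0, its size factors, filters on low counts, the default spread, only the groups compared, a replicate block, 18 libraries (without Vehicle replicate 4 and Pool 2 replicate 1) and leaving out each mouse. Marker and related lists without Pool 2 replicate 1 were added after seeing the data. The tests were tried on simulated counts with known changes. Libraries held 20588280 to 25543939 counts.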

Additional observations from a re-analysis of the deposited data

Results flagged for a closer look

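In 40 groups of 5 mice (10 genes in 4 groups), the gap of the highest or lowest mouse to the next was compared with Dixon's 95% critical value, which chance passes in about 1 of 20 groups, and 2 groups passed it.

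Syt9 in Vehicle replicate 2 was 15.8 CPM, with the next mouse at 7.85 CPM and the lowest at 4.89 CPM, a gap of 0.727 of the range. Without this mouse, as under other alternatives, Syt9 was not called in Control against Vehicle, and it stayed called in Pool 1 against Vehicle. The same mouse had the most Syt6.

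Syt11 in Control replicate 5 was 612 CPM, with the next mouse at 732 CPM and the highest at 780 CPM, a gap of 0.712 of the range. Syt11 was not called in any comparison with Control mice.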

How the results depend on the processing

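The call of Syt9 in Pool 2 against Pool 1 and in Pool 1 against Vehicle mice held under all 18 alternatives of each, with log2 fold changes of 1.42 to 1.85 and −1.67 to −1.17. The other 6 calls kept their direction but were lost under 2 to 10 of 18 alternatives. For Syt9 in Control against Vehicle the call was lost with DESeq2 size factors, with filterByExpr and with only the groups compared, which left 1 member called in each case. With only the groups compared, 2 members were called in Pool 2 against Pool 1. Over 18 libraries, 4 members were called in Pool 2 against Control (Syt2, Syt6, Syt9 and Syt15) and 2 in Pool 1 against Vehicle (Syt6 and Syt9). The same 4 were called in Pool 2 against Control without Pool 2 replicate 1 alone.

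Leaving out 1 mouse gave 0 to 2 members called in Pool 1 against Control, 0 to 4 in Pool 2 against Control, 0 to 3 in Control against Vehicle, 1 to 2 in Pool 1 against Vehicle, 0 in Pool 2 against Vehicle and 1 in Pool 2 against Pool 1. The replicate block left 1 member called in Pool 1 against Control (Syt9) and 1 in Control against Vehicle (Syt6). The numbers did not pair the mice: over 30 same-numbered pairs the correlation of deviations ran from −0.32 to 0.28.

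Rank correlation left 0 member pairs at an adjusted p under 0.05, values not centred on the group left 2, and 6 of 10 members kept their place in the order without division by length. Of 52 differences not called, 19 changed sign in some alternative. Syt15 rests on 10 to 44 counts per library. Syt9 rests on 39 to 364 and varied more between mice than most genes of like count. Over all genes, Pool 1 against Control gave 876 calls, and 402 among genes averaging 10 or more normalized counts and 426 after filterByExpr, where fewer genes were tested. The cause of the other changes was not tested.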
